A study of Mus musculus with 16 samples.

Results

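Histamine made by neurons of the hypothalamus is a signal of the waking brain, and 5 genes carry most of its metabolism and reception there. Hdc encodes histidine decarboxylase, the enzyme that makes histamine from histidine. Hnmt encodes histamine N-methyltransferase, the enzyme that inactivates histamine inside brain cells. Hrh1, Hrh2 and Hrh3 encode the H1, H2 and H3 histamine receptors. These 5 genes were chosen by symbol, and each symbol matched a single gene identifier, giving 5 of the 55401 identifiers in the deposited tables.

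RNA was sequenced from the whole hypothalamus of 16 male C57BL/6 mice aged 3 months, in 4 groups of 4, with each library from another mouse. The groups were wild-type (WT) mice and ASIC1a-/- mice, which carry a germ-line deletion of the acid-sensing ion channel 1a, taken either at ZT1, 1 h after lights on, or at ZT13, 1 h after lights off. All the mice came from heterozygous breeding and were kept in a light-dark cycle. The dissected hypothalamus was not sorted, so a smaller number of cells of a type and less RNA per cell cannot be told apart in any result below. ZT13 vs ZT1 asks whether the hypothalamic transcriptome follows the time of day, and ASIC1a-/- vs WT asks whether it depends on the channel.

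As background, the histamine neurons of the brain lie in the tuberomammillary nucleus of the posterior hypothalamus, and their axons reach most of the brain. They fire during wakefulness and are silent in sleep, and orexin excites them through its receptor Hcrtr2. The H1 receptor couples to Gq proteins and phospholipase C, the H2 receptor couples to Gs proteins and adenylyl cyclase, and the H3 receptor couples to Gi and Go proteins and sits on histamine terminals as an autoreceptor that limits release. Mice are active in the dark, so ZT1 falls early in their rest phase and ZT13 early in their active phase.

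The libraries held between 34888522 and 42326259 estimated counts, with a median of 35750448. Asic1, which encodes the deleted channel, was lower in ASIC1a-/- than in WT at both times, by 0.62 on the log2 scale at ZT1 (adjusted p = 3.49e-10) and by 0.48 at ZT13 (adjusted p = 1.34e-08; edgeR's quasi-likelihood test). At ZT1 its assigned transcript averaged 1814 bp in the ASIC1a-/- libraries but 3213 bp in WT, and at ZT13 1819 and 3060 bp, so that its level per length was not lower in ASIC1a-/- (76.9 and 65.6 transcripts per 1000000, TPM, in ASIC1a-/- and WT at ZT1). All 9 hypothalamic marker genes were present, with a summed level of 1075 to 1509 CPM (counts per 1000000 counts), most of it from Pmch, which ranged from 727 to 1182 CPM. Of neighbouring tissues, 5 cortical markers summed to 7.87 to 15.7 CPM, 6 striatal markers to 189 to 212 CPM and 6 thalamic markers to 646 to 753 CPM. Markers of the meninges summed to 382 CPM in ASIC1a-/- ZT1 replicate 4 and 190 CPM in ASIC1a-/- ZT13 replicate 2, with a median of 60.9 over all 16 libraries. Of 12 clock genes, 7 were higher and 1 lower at ZT13 in WT, and 6 were higher and 1 lower in ASIC1a-/-, where 13.3% and 11.3% of all genes tested passed. Per2 was higher by 0.60 ± 0.071 (log2, SE) in WT, Dbp by 0.48 ± 0.052, and Arntl fell by 0.33 ± 0.048.

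Each of the 5 genes lies on an autosome of GRCm38. Hdc lies at chr2:126593667-126619299 on the minus strand and has a single coding transcript of 12 exons and 2392 bp. Hnmt lies at chr2:24002910-24049394 on the minus strand. Hrh3 lies on the same chromosome and strand, at chr2:180099465-180104488, and has 6 annotated coding transcripts. Hrh1 lies at chr6:114397936-114483296 and Hrh2 at chr13:54192129-54236180, both on the plus strand.

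RefSeq promoter windows of 300 bases, 250 before and 50 after the start site, were found for all 5 genes, 9 windows in all. Hrh1 has 4 of them and Hrh2 has 2. The Hrh2 windows, chr13:54191879-54192178 and chr13:54191883-54192182, are nearly the same sequence. The Hrh1 windows at chr6:114397686-114397985 and chr6:114397836-114398135 also overlap. Counts of windows below therefore include shared sequence more than once. The upstream parts for the synthesizing and the inactivating enzyme are shown because these 2 genes set the supply of histamine and their windows differ in composition. Capitals mark a GC box in Hdc and a CCAAT box in Hnmt. The Hdc sequence lies at chr2:126618679-126618928 and the Hnmt sequence at chr2:24049395-24049629, both read on the minus strand of GRCm38.p6, 5′ to 3′.
Hdc: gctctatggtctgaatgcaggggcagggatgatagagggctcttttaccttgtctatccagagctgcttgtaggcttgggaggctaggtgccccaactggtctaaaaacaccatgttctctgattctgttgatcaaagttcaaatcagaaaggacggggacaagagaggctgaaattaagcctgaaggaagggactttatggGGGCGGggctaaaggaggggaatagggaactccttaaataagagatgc
Hnmt: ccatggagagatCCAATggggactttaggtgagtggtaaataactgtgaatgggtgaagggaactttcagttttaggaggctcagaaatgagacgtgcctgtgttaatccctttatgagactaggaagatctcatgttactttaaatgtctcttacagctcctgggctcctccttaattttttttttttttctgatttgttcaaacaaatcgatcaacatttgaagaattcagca

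The windows were searched on both strands for 6 motifs, none of which contains another. The E-box CACGTG, through which the clock proteins act, was in 0 of the 9 windows and in 7.15% of the 32851 windows of all genes. The D-box TTATGTAA was in 0 of 9 windows against 0.938% of all, and the cyclic AMP response element TGACGTCA in 0 of 9 against 1.79%. The TATA box TATAAA was in 0 of 9 windows and 13.6% of all. The GC box GGGCGG was in 6 of 9 windows, belonging to Hdc, Hrh1, Hrh2 and Hrh3, and in 35.7% of all, while the CCAAT box CCAAT was in 2 windows, those of Hnmt and Hrh3, and in 37.4% of all. These counts describe the letters of the windows only. The G and C content was 39.3% in the Hnmt window and 50.7% in the Hdc window, against 79.0% in the Hrh3 window and a median of 52.7% over all windows.

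Levels of the genes were compared with each other in TPM, a scale that corrects for transcript length. The order was Hdc, Hrh3, Hnmt, Hrh1, Hrh2, with medians over 16 libraries of 63.5, 53.3, 35.1, 22.4 and 5.83 TPM. Hdc ranged from 55.0 to 77.0 TPM and Hrh3 from 45.8 to 61.3 TPM, so these ranges overlapped, but Hdc was above Hrh3 in 16 of 16 libraries, by up to 1.31 times. The ranges of the other neighbours in the order did not overlap. Hnmt ranged from 30.2 to 39.1 TPM, Hrh1 from 20.4 to 24.8 TPM and Hrh2 from 5.19 to 6.55 TPM. Each of the 4 steps held in 16 of 16 libraries. The exact paired permutation p of each was 3.05e-05 (two-sided, adjusted p = 3.05e-05), the smallest that this test can give. The steps were taken from the order seen in these same libraries, so the p describes only how steadily they repeated. It does not measure an error in length or read assignment that all libraries share. Of the receptor genes Hrh3 had the highest level, and Hrh1 exceeded Hrh2 by a median of 3.82 times. The unsorted tissue does not show which cells held the Hrh3 RNA.

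**Figure D1:**
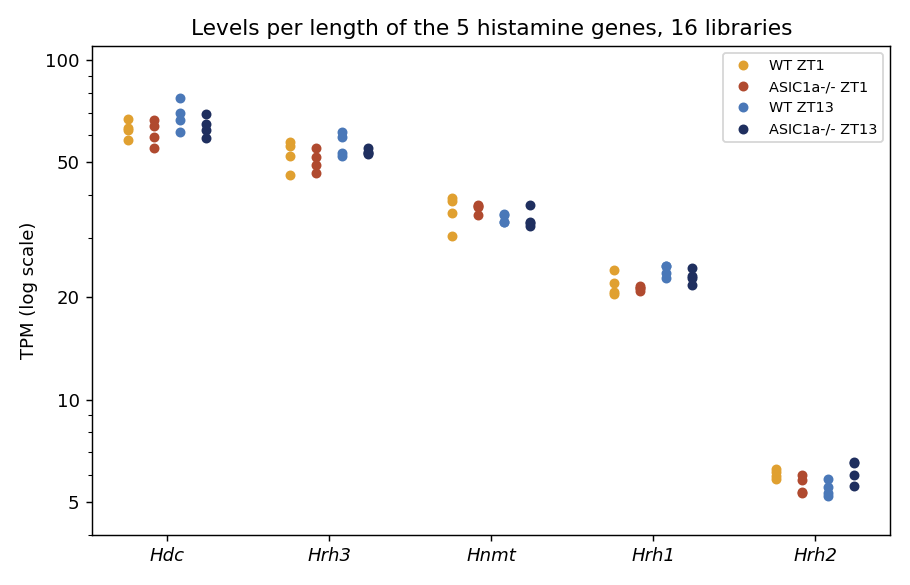
TPM (log axis) of the 5 histamine genes, 1 point per library, coloured by genotype and time. The order Hdc, Hrh3, Hnmt, Hrh1, Hrh2 held in each of the 16 libraries, and only the ranges of Hdc and Hrh3 overlapped.

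The fourth receptor gene, Hrh4, which is known mainly from blood cells, had 0 or 1 count per library and 3 counts in total. Aoc1, which encodes the diamine oxidase that degrades histamine outside the brain, ranged from 0.055 to 0.28 CPM. Both were below the limit of 1 CPM in at least 1 library that a gene had to reach to be tested. Markers of mast cells and basophils, which also make histamine, were at or near 0: all 8 were below the same limit, Mcpt8 was at 0 in every library, and their sum ranged from 0 to 1.36 CPM while Hdc ranged from 67.8 to 88.2 CPM. The largest of these sums, 0.81 and 1.36 CPM, were in ASIC1a-/- ZT1 replicate 4 and ASIC1a-/- ZT13 replicate 2, the libraries with the highest meningeal markers.

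Estimated counts in a library ranged from 2420 to 3211 for Hdc, 1809 to 2345 for Hrh3, 960 to 1265 for Hrh1, 700 to 909 for Hnmt and 360 to 545 for Hrh2. Counting error alone was therefore at most 2.03% of a value for Hdc and 5.27% for Hrh2. The coefficient of variation of CPM over the 16 libraries was 7.32% for Hdc, 6.84% for Hnmt, 6.50% for Hrh1, 7.31% for Hrh2 and 6.08% for Hrh3. Within groups, the SD of log2 CPM was 0.093 for Hdc and 0.090 for Hrh3, above that of 93.4% and 93.8% of the 500 genes nearest to each in abundance. For Hnmt, Hrh1 and Hrh2 it was above that of 64.6%, 75.6% and 30.4% of such genes.

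No histamine gene passed the test in either comparison of ZT13 with ZT1 within a genotype, at an adjusted p under 0.05 over all 15808 genes tested, whereas 2099 genes (13.3%) passed in WT and 1792 genes (11.3%) in ASIC1a-/-. The unadjusted p was under 0.05 in 4 of these 10 tests, Hdc, Hrh1 and Hrh2 in WT and Hnmt in ASIC1a-/-, while 27.1% of all genes had such a p in WT and 26.3% in ASIC1a-/-. The median log2 fold change of the 5 genes was 0.062 in WT and 0.026 in ASIC1a-/-, against -0.0027 and -0.0064 over all genes tested. The 95% confidence intervals in these comparisons lay between -0.29 and 0.26 on the log2 scale. DESeq2 called 0 of the 5 genes in either genotype as well.

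**Figure D2:**
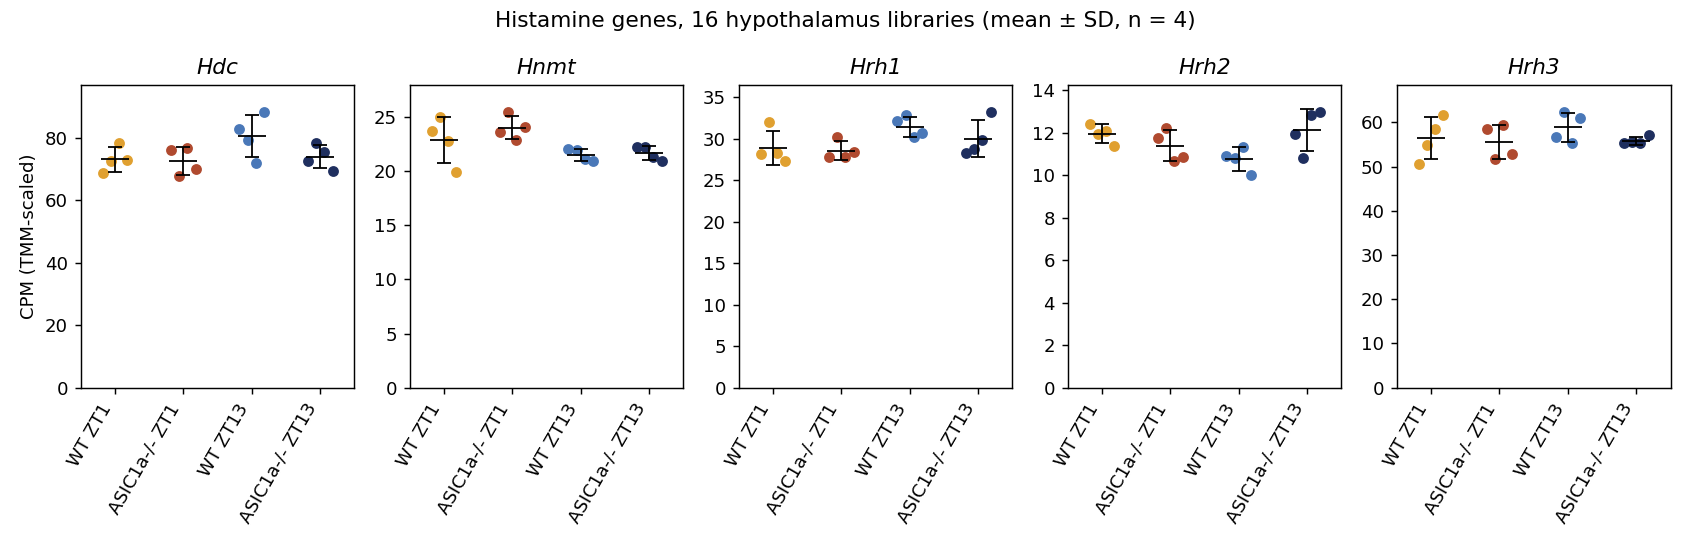
CPM of each histamine gene in every library, grouped by genotype and time (points: 4 mice per group, bar and whiskers: mean ± SD, axis from 0). The groups of each gene lie close together; Hnmt runs from 20.0 to 25.5 CPM at ZT1 and from 20.9 to 22.3 CPM at ZT13, and the points of Hrh2 in WT do not overlap between the times.

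Hdc, the synthesizing enzyme, stood at 68.8, 72.6, 78.6 and 72.9 CPM in WT at ZT1 and at 82.8, 79.5, 72.0 and 88.2 CPM in WT at ZT13. In ASIC1a-/- it stood at 76.1, 67.8, 76.9 and 70.1 CPM at ZT1 and at 72.6, 78.3, 75.6 and 69.6 CPM at ZT13. Of the WT libraries at ZT13, 3 were above every WT library at ZT1 and replicate 3 was below all but 1 of them, while the ASIC1a-/- groups covered nearly the same range. The log2 fold change of Hdc from ZT1 to ZT13 was 0.14 ± 0.058 (SE) in WT (95% interval 0.017 to 0.26; adjusted p = 0.127) and 0.026 ± 0.058 in ASIC1a-/- (-0.096 to 0.15; adjusted p = 0.816). Without WT ZT13 replicate 3, the value in WT was 0.19 with an adjusted p of 0.038.

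Hnmt, the inactivating enzyme, stood at 23.7, 25.0, 22.8 and 20.0 CPM in WT at ZT1 and at 22.1, 22.0, 21.2 and 20.9 CPM in WT at ZT13. In ASIC1a-/- it stood at 23.6, 25.5, 22.9 and 24.2 CPM at ZT1 and at 22.3, 22.3, 21.3 and 21.0 CPM at ZT13. The ASIC1a-/- groups did not overlap in CPM, as did 15.7% of all genes tested there, and the WT groups overlapped through WT ZT1 replicate 4, the lowest of all 16 libraries. The log2 fold change was -0.15 ± 0.054 (SE) in ASIC1a-/- (95% interval -0.26 to -0.034; adjusted p = 0.0866) and -0.087 ± 0.054 in WT (-0.20 to 0.027; adjusted p = 0.324). The value in WT turned on single libraries: it was -0.15 without WT ZT1 replicate 4 (adjusted p = 0.046) and -0.042 without WT ZT1 replicate 2 (adjusted p = 0.68). The value in ASIC1a-/- was -0.15 without WT ZT1 replicate 4 (adjusted p = 0.028) and ran from -0.17 to -0.12 over all the fits without 1 library. On the TPM scale the ASIC1a-/- groups overlapped, from 34.9 to 37.4 TPM at ZT1 and from 32.4 to 37.4 TPM at ZT13.

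Hrh1, the gene of the Gq-coupled receptor, stood at 28.1, 32.0, 28.3 and 27.4 CPM in WT at ZT1 and at 32.1, 32.8, 30.2 and 30.7 CPM in WT at ZT13. In ASIC1a-/- it ranged from 27.8 to 30.2 CPM at ZT1 and from 28.3 to 33.2 CPM at ZT13. WT ZT1 replicate 2 alone lay within the range of the WT libraries at ZT13. The log2 fold change was 0.12 ± 0.054 (SE) in WT (95% interval 0.0067 to 0.23; adjusted p = 0.158) and 0.071 ± 0.054 in ASIC1a-/- (-0.042 to 0.19; adjusted p = 0.431). Without WT ZT1 replicate 2, the value in WT was 0.17 with an adjusted p of 0.041.

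Hrh2, the gene of the Gs-coupled receptor, stood at 12.4, 11.9, 12.1 and 11.4 CPM in WT at ZT1 and at 10.9, 10.8, 11.3 and 10.01 CPM in WT at ZT13. The WT groups did not overlap in CPM, by a margin of less than 0.1 CPM, as did 18.3% of all genes tested there. In ASIC1a-/- the values were 11.8, 12.2, 10.7 and 10.9 CPM at ZT1 and 11.9, 10.8, 12.8 and 13.0 CPM at ZT13, which overlapped. The log2 fold change was -0.15 ± 0.066 (SE) in WT (95% interval -0.29 to -0.014; adjusted p = 0.142) and 0.092 ± 0.065 in ASIC1a-/- (-0.044 to 0.23; adjusted p = 0.393).

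Hrh3 is the gene of the receptor coupled to Gi and Go proteins. In WT it ranged from 50.5 to 61.8 CPM at ZT1 and from 55.4 to 62.2 CPM at ZT13. In ASIC1a-/- it ranged from 51.6 to 59.3 CPM at ZT1 and from 55.2 to 57.1 CPM at ZT13. Both pairs of groups overlapped, and the ASIC1a-/- libraries at ZT13 were the closest together. The log2 fold change was 0.062 ± 0.057 (SE) in WT (95% interval -0.059 to 0.18; adjusted p = 0.533) and 0.0074 ± 0.057 in ASIC1a-/- (-0.11 to 0.13; adjusted p = 0.951).

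The 8 libraries at ZT13 were also compared with the 8 at ZT1 with both genotypes averaged, a comparison chosen after the values within each genotype were seen. In it, 4170 genes (26.4%) passed the test, and of the histamine genes 1 did, Hnmt, which was lower at ZT13 by 0.12 ± 0.038 on the log2 scale (SE; 95% interval -0.20 to -0.037; 0.922-fold; adjusted p = 0.0297). Over its alternatives the adjusted p of Hnmt ran from 0.0020 to 0.26, and it missed the threshold in 10 of 26 of them, among them both TPM scales and the fit without ASIC1a-/- ZT1 replicate 4 and ASIC1a-/- ZT13 replicate 2, the libraries with high meningeal markers (adjusted p = 0.052). Leaving out replicate 1 or 2 of WT at ZT1, replicate 2 of ASIC1a-/- at ZT1, replicate 4 of WT at ZT13, or replicate 3 or 4 of ASIC1a-/- at ZT13 also moved it above the threshold, with an adjusted p between 0.050 and 0.068. Hrh1 was 0.096 ± 0.038 (adjusted p = 0.0729), and it passed in 6 of 26 alternatives, among them both TPM scales (0.12, adjusted p = 0.030) and the fit without replicate 2 of WT at ZT1 (0.12, adjusted p = 0.018). Hdc was 0.083 ± 0.041 (adjusted p = 0.149; 0.0475 without replicate 3 of WT at ZT13), Hrh3 0.035 ± 0.040 (adjusted p = 0.574) and Hrh2 -0.030 ± 0.046 (adjusted p = 0.680).

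No histamine gene passed the test between genotypes at ZT1, where 2 genes (0.0127%) passed, at ZT13, where 16 genes (0.101%) passed, or with both times averaged, where 10 genes (0.0633%) passed. DESeq2 called no histamine gene in these comparisons either. Of the 15 tests, 2 had an unadjusted p under 0.05, both at ZT13, where 3.74% of all genes had such a p. Hrh2 was the first, at 0.17 ± 0.065 on the log2 scale (SE; 95% interval 0.036 to 0.31; unadjusted p = 0.0161, adjusted p = 1.0), with 10.8 to 13.0 CPM in ASIC1a-/- against 10.01 to 11.3 CPM in WT. Hdc was the other, at -0.12 ± 0.058 (-0.24 to -0.0017; unadjusted p = 0.0473, adjusted p = 1.0), with 69.6 to 78.3 CPM in ASIC1a-/- against 72.0 to 88.2 CPM in WT. Both pairs of groups overlapped, and without WT ZT13 replicate 4 the value of Hdc was -0.076. At ZT1 the values ran from -0.071 ± 0.065 for Hrh2 to 0.071 ± 0.054 for Hnmt, with adjusted p between 0.810 and 0.984. No 95% interval in the genotype comparisons reached beyond 0.844-fold or 1.24-fold.

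**Figure D3:**
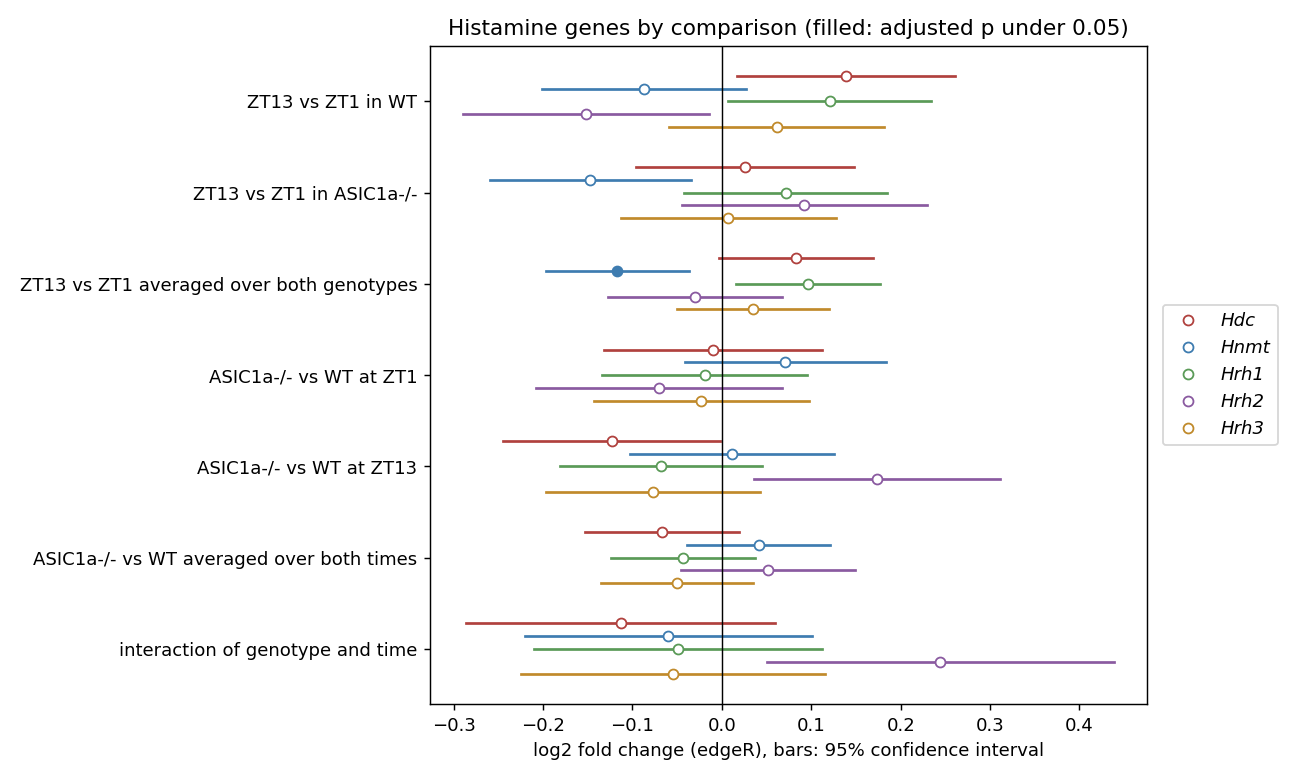
Log2 fold change of each histamine gene in each comparison from edgeR (circles, bars: 95% confidence interval, filled where the adjusted p is under 0.05, line at 0: no change). Only Hnmt at ZT13 vs ZT1 averaged over both genotypes is filled, at -0.12, and each interval stays within 0.818-fold and 1.36-fold.

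The effect of time did not pass a test of its difference between genotypes for any histamine gene, while 3 genes (0.0190%) passed it. Hrh2 had the largest interaction, 0.24 ± 0.092 on the log2 scale (SE; 95% interval 0.050 to 0.44; unadjusted p = 0.0166, adjusted p = 1.0), the difference between its time values of 0.092 in ASIC1a-/- and -0.15 in WT. The interaction of Hdc was -0.11 ± 0.082 (-0.29 to 0.059), and those of Hnmt, Hrh1 and Hrh3 lay between -0.060 and -0.049. The comparisons share libraries: the 4 WT libraries at ZT13, for example, enter the time, genotype and interaction values of Hrh2 alike.

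Transcript length, which the quantification weights by the abundance of each isoform, was compared for each gene in 20 exact permutation tests of 4 libraries against 4. None had an adjusted p under 0.886. With 4 libraries against 4, a single low value, or a few, could not have passed after adjustment over 20 tests. The adjusted values therefore decide nothing about length. The lowest unadjusted values were those of Hrh3, whose mean length was 2161 ± 35.9 bp (SD, n = 4) at ZT13 and 2212 ± 37.6 bp at ZT1 in WT (exact p = 0.143), and 2173 ± 26.7 and 2229 ± 49.1 bp in ASIC1a-/- (exact p = 0.114), where the smallest p that 4 against 4 allows is 0.0286. The lengths of Hdc differed by less than 10 bp between any groups compared.

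The other genes that handle histamine were measured next, and 6 of the 8 on the list were tested. In WT, 0 of 6 passed the test of time, and in ASIC1a-/- 1 of 6 did, against 13.3% and 11.3% of all genes. That gene was Slc18a2, the vesicular monoamine transporter that loads histamine as well as dopamine, noradrenaline and serotonin into vesicles, which was lower at ZT13 in ASIC1a-/- by 0.51 on the log2 scale (adjusted p = 0.0279). Slc18a2 stood at 77.2, 114, 85.3 and 113 CPM in ASIC1a-/- at ZT1 and at 71.4, 64.0, 76.4 and 60.9 CPM at ZT13, and these groups did not overlap, as for 15.7% of all genes, with 77.2 CPM the lowest at ZT1 and 76.4 CPM the highest at ZT13. In WT it ranged from 53.3 to 90.5 CPM at ZT1 and from 60.7 to 77.1 CPM at ZT13, and its log2 fold change was -0.042 (adjusted p = 0.893). The interaction of genotype and time for Slc18a2 was -0.47 (adjusted p = 1.0).

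Markers of midbrain dopamine neurons, which also use Slc18a2, moved with it. Their summed level ranged from 150 to 340 CPM in ASIC1a-/- at ZT1 and from 70.8 to 121 CPM at ZT13, and 4 of the 6 markers, Th, Chrna6, Slc10a4 and En1, passed the test as lower at ZT13 there. In WT the sum ranged from 54.9 to 206 CPM at ZT1 and from 46.2 to 135 CPM at ZT13, and 0 of 6 passed. Of all genes tested, 11.3% passed in ASIC1a-/- and 13.3% in WT. Over the 6 markers the median change was -1.37 on the log2 scale in ASIC1a-/- and -0.49 in WT. The part of these cells in the Slc18a2 result was not tested. Between Hdc and the mean of the dopamine markers, with group means taken out, r was -0.392 (permutation p = 0.197, adjusted p = 0.38) and rho -0.529 (permutation p = 0.072, adjusted p = 0.248) over 16 libraries, adjusted over 27 relations, and r was -0.451 with the 2 libraries farthest from the median marker mean left out.

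**Figure D4:**
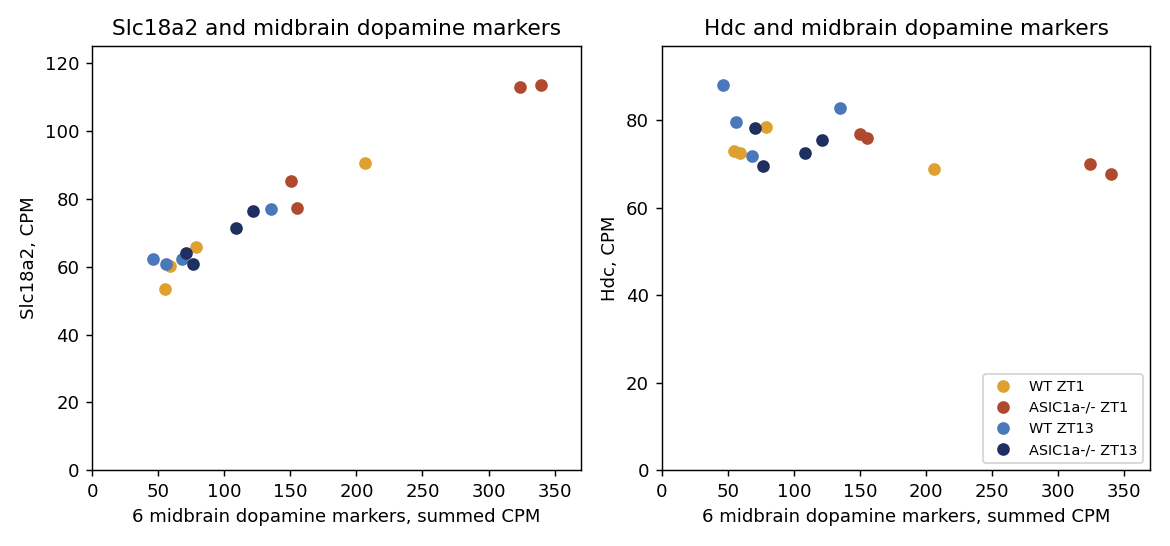
Slc18a2 (left) and Hdc (right) in CPM against the summed CPM of 6 midbrain dopamine markers, 1 point per library, coloured by genotype and time, axes from 0. Slc18a2 runs from 53.3 to 114 CPM and is highest in the libraries with the most dopamine markers. Hdc runs from 67.8 to 88.2 CPM. It is 67.8 and 70.1 CPM in ASIC1a-/- ZT1 replicates 2 and 4, which have the most markers (340 and 324 CPM). Hdc is 68.8 CPM in WT ZT1 replicate 1, which has the next most markers (206 CPM). It is similarly low, 69.6 CPM, in ASIC1a-/- ZT13 replicate 4, which has 76.5 CPM of them.

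Maob, the monoamine oxidase that acts on the methylated product of Hnmt, had 57.3 to 69.0 CPM over the 16 libraries and a log2 fold change from ZT1 to ZT13 of -0.084 in WT (adjusted p = 0.208) and -0.11 in ASIC1a-/- (adjusted p = 0.0961). With both genotypes averaged it passed the test, at -0.098 (adjusted p = 0.0209), on the same side as Hnmt in that comparison. Maoa, the other monoamine oxidase, was at -0.050 and -0.053 in WT and ASIC1a-/-, and Aldh2, an aldehyde dehydrogenase, at -0.027 and -0.036; neither passed. The transporters that take up histamine at low affinity did not pass either. Slc29a4 ranged from 26.9 to 32.3 CPM, with values of -0.10 in WT and -0.039 in ASIC1a-/-, and Slc22a3 from 2.76 to 3.85 CPM, with values of -0.080 and -0.079. Between genotypes 0 of 6 passed at either time, with Slc18a2 at 0.53 at ZT1 (adjusted p = 0.680).

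Of 13 genes of the pathways downstream of the receptors, 1 was higher and 1 lower at ZT13 in WT, and 1 was lower in ASIC1a-/-, counts near the 13.3% and 11.3% of all genes that passed. Plcb1, a phospholipase C of the Gq pathway, was lower in WT by 0.18 ± 0.042 on the log2 scale (SE; adjusted p = 0.0084). Gna11, an alpha subunit of the Gq family, was higher in WT by 0.092 ± 0.024 (adjusted p = 0.0168). Adcy5, an adenylyl cyclase, was lower in ASIC1a-/- by 0.079 ± 0.025 (adjusted p = 0.0475). Plcb4, another phospholipase C, was at -0.094 ± 0.032 in WT and did not pass (adjusted p = 0.0587). With both genotypes averaged, 2 of the 13 passed as higher at ZT13, Adcy9 and Gna11, and 3 as lower, Adcy5, Plcb1 and Plcb4. Of all genes tested, 26.4% passed there. The median of the list was -0.029 in WT and -0.016 in ASIC1a-/-, and 0 of 13 passed between genotypes at either time.

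Among 6 inputs and co-transmitters of histamine neurons, Hcrtr2, the receptor through which orexin excites them, was higher at ZT13 in ASIC1a-/- by 0.21 ± 0.061 on the log2 scale (SE; adjusted p = 0.0321). Its value in WT was 0.17 (adjusted p = 0.0665), and with both genotypes averaged 0.19 (adjusted p = 0.0030). Hcrtr2 alone of the 6 passed in ASIC1a-/- and with both genotypes averaged, where 11.3% and 26.4% of all genes did. In WT it ranged from 11.1 to 12.9 CPM at ZT1 and from 13.2 to 13.6 CPM at ZT13. In ASIC1a-/- it ranged from 10.4 to 12.6 and from 12.9 to 14.2 CPM. The groups did not overlap in either genotype, as for 18.3% of all genes tested in WT and 15.7% in ASIC1a-/-. Hcrt itself, the orexin precursor, was at -0.33 ± 0.16 in ASIC1a-/- vs WT at ZT1 (adjusted p = 0.718), Gal, the galanin precursor, at 0.14 ± 0.053 in the same comparison (adjusted p = 0.680), and Gad1, an enzyme of GABA synthesis, at -0.067 ± 0.043 from ZT1 to ZT13 in ASIC1a-/- (adjusted p = 0.352). None of these passed.

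Genes that mark tuberomammillary neurons beside Hdc were at 155 to 214 CPM in sum. Most of this sum came from Slc18a2 (53.3 to 114 CPM) and Maob (57.3 to 69.0 CPM). Other hypothalamic cells express several of these genes, so the sum does not measure histamine neurons alone. Of the 6, Wif1, a secreted inhibitor of Wnt signalling, was higher at ZT13 in WT by 0.32 ± 0.081 on the log2 scale (SE; adjusted p = 0.0136), with 7.90 to 9.90 CPM at ZT1 and 10.5 to 11.8 CPM at ZT13. In ASIC1a-/- Wif1 was at 0.065 (adjusted p = 0.649). Prph, the intermediate filament peripherin, was at 0.20 ± 0.074 in WT (adjusted p = 0.0823). The same list holds Slc18a2, Hcrtr2 and Maob, described above, and Ada: in ASIC1a-/- Hcrtr2 passed as higher and Slc18a2 as lower at ZT13, and with both genotypes averaged Wif1 and Hcrtr2 passed as higher and Maob as lower. Of all genes tested, 13.3% passed in WT, 11.3% in ASIC1a-/- and 26.4% with both genotypes averaged. The median of the list was 0.10 in WT and 0.0038 in ASIC1a-/-. Of 6 markers of the surrounding mammillary hypothalamus, 0 passed within either genotype, and their median log2 value was -0.056 in WT and 0.14 in ASIC1a-/-. Foxb1, a transcription factor of the mammillary region, was at 0.19 in WT (adjusted p = 0.0644) and 0.19 in ASIC1a-/- (adjusted p = 0.0761), while the other 5 were below 0 in WT, from -0.17 for Lmx1a to -0.030 for Nkx2-4. With both genotypes averaged, Foxb1 alone of the 6 passed (0.19, adjusted p = 0.0059), as did 26.4% of all genes, and the median of the list was 0.016.

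How the genes varied between mice of the same group was examined on log2 CPM with each group's mean taken out, over the 16 libraries. Of 12 markers of the tuberomammillary neurons and the mammillary region, Foxb1 had the highest correlation with Hdc (Pearson's r = 0.788, permutation p = 0.00117, adjusted p = 0.0316; Spearman's rho = 0.762, permutation p = 0.0033, adjusted p = 0.0891), adjusted over 27 relations. The value was r = 0.746 when the 2 libraries farthest from Foxb1's median were left out, and it was positive within 4 of 4 groups. Prph was next, with r = 0.761 (permutation p = 0.00493, adjusted p = 0.0666) and rho = 0.694 (permutation p = 0.00949, adjusted p = 0.0946), and r = 0.563 with its 2 farthest libraries left out. Slc18a2 had r = -0.318 with Hdc (permutation p = 0.254) and rho = -0.368 (permutation p = 0.21). The libraries with more Hdc than their group mean thus tended to have more Foxb1, a relation that passed the adjusted threshold for r and not for rho.

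**Figure D5:**
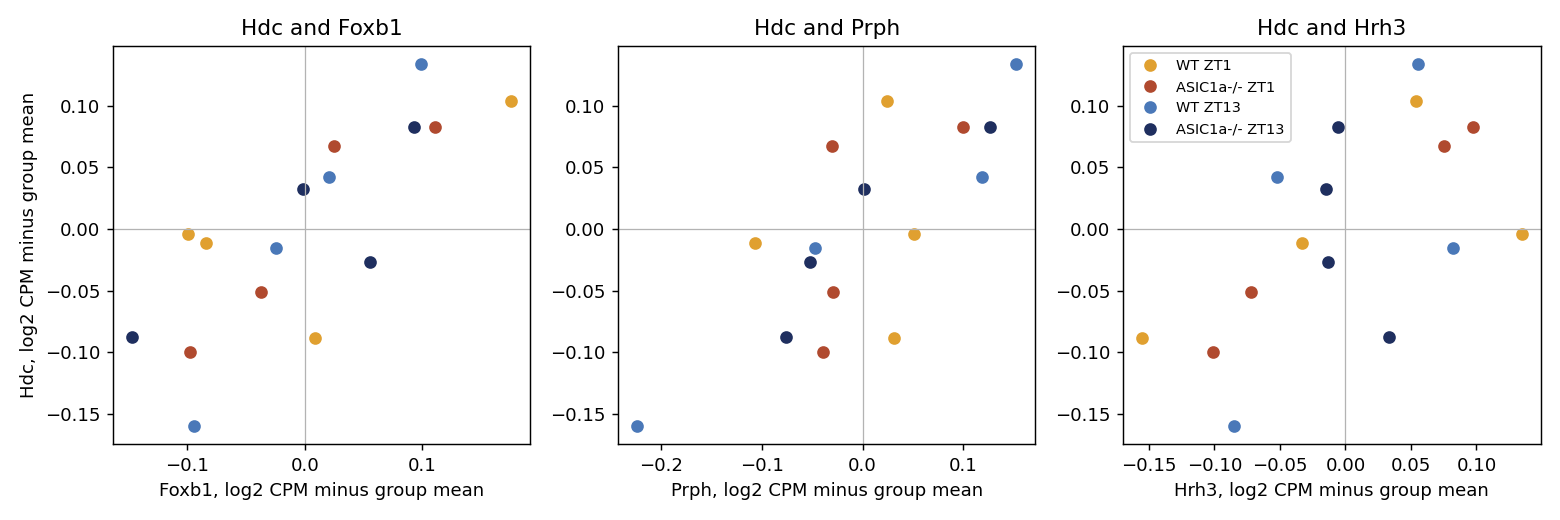
Deviation of Hdc from its group mean (log2 CPM) against the same deviation of Foxb1, Prph and Hrh3, 1 point per library, coloured by genotype and time. The points rise from lower left to upper right, with r of 0.788, 0.761 and 0.593.

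Among the 5 genes, 0 of 10 pairs passed after adjustment. Hdc and Hrh3 had r = 0.593 (permutation p = 0.034, adjusted p = 0.166) and rho = 0.638 (permutation p = 0.0339, adjusted p = 0.113), and r = 0.534 with the 2 farthest Hdc libraries left out, and r was positive within 3 of 4 groups. Hdc and Hrh2 had r = -0.587 (permutation p = 0.0284, adjusted p = 0.166) and rho = -0.594 (permutation p = 0.0298, adjusted p = 0.113), negative within 4 of 4 groups, and r = -0.471 with the same 2 left out. Hnmt and Hrh3 had r = -0.654 (permutation p = 0.0498, adjusted p = 0.166) and rho = -0.665 (permutation p = 0.0158, adjusted p = 0.113), and r = -0.613 with the 2 farthest Hnmt libraries left out. Against the mean of the midbrain dopamine markers, Hrh3 had r = -0.757 (permutation p = 0.00937, adjusted p = 0.0843) and rho = -0.741 (permutation p = 0.0134, adjusted p = 0.0946), negative within 4 of 4 groups, and r = -0.666 with the 2 libraries farthest from the median marker mean left out. Hrh2 went the other way, with r = 0.433 (permutation p = 0.0915, adjusted p = 0.34) and rho = 0.606 (permutation p = 0.014, adjusted p = 0.0946), positive within 4 of 4 groups, and r = 0.435 with the same 2 left out. Neither passed. Against the mean of the meningeal markers, r ran from -0.61 for Hrh2 to 0.167 for Hdc and Hnmt, and none passed.

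Of 14965 genes with a mean of at least 1 CPM, those whose deviations were most like Hdc were Grm2, a metabotropic glutamate receptor, with r = 0.955, followed by Polm, Irak1, Setd1b and Urb1 (r = 0.873 to 0.893). Most like Hrh3 were Oprm1, the mu opioid receptor, with r = 0.893, then Ptov1, Myh7, Lrp3 and Mad1l1 (r = 0.839 to 0.886). Most like Hrh2 were Gabrg3, a GABA receptor subunit (r = 0.898), Scrn1, Shtn1, Pak1 and Atp6v0e2, the last at r = 0.874. For Hnmt they were Olfml1 (r = 0.872), Phf6, Zdhhc20, Tvp23b and Xpot, and for Hrh1 Psd3 (r = 0.853), Usp46, Prkar2b, Xbp1 and Rexo2. These genes are the highest of many, over 16 libraries that share depth and tissue borders with the histamine genes, and their r values are given as a description without a test.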

How the data were processed

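RNA of 16 hypothalami was sequenced as 100-bp read pairs. Per the labels and the study's methods, the authors trimmed reads with cutadapt 1.8, removed ribosomal reads, aligned to GRCm38 transcripts with STAR 2.5.3a and estimated abundance with RSEM 1.2.31. The submitters' notes also list mm9. The deposited files hold expected counts (4.851% not whole), TPM and a transcript length per gene, and are not pooled. RSEM shares reads that fit several transcripts, so near-identical copies and isoforms are estimates. The labels name another RNA kit and library kit than the methods, and give no batch.

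Expected counts were rounded. Genes above 1 CPM in at least 1 library (15808) entered 1 edgeR 4.0.16 quasi-likelihood fit of the 4 groups with TMM scaling, in R 4.3.3, with 12 residual degrees of freedom, and p-values were adjusted by Benjamini-Hochberg over all genes. CPM values are TMM-scaled. Fold changes are on the log2 scale. The fit was tested on counts simulated from its own model, with changes planted only in WT at ZT13. The planted changes were larger than those seen in the histamine genes. The simulation therefore does not show whether changes as small as theirs would be found. DESeq2 1.42.0, limma 3.58.1 on log2(TPM + 1) and log2(TPM + 0.1), other scalings and filters, a replicate block and leaving out libraries were alternatives. Correlations used 100000 permutations of libraries within groups. Promoter windows came from RefSeq (GRCm38.p6) and transcripts from GENCODE release 21 for mouse, both of the files' build.

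Libraries of a group differed by more than sampling noise (chi-square per degree of freedom 2.91 to 9.78 over 24 pairs), so none was counted as a copy. Intervals rest on the spread between the mice of these 4 groups, with 12 residual and 5.83 prior degrees of freedom. They were not checked in other mice. Counting errors cover counting alone. The histamine genes and all lists were chosen with earlier results of these data known. Named genes were the 5 members, Asic1, the other histamine handling genes, up to 4 genes of each other list with the smallest p, markers at 0, and the 5 genes most like each member; not all of these are printed. Lists for endothelium, glia, thalamus and striatum were checked as marker lists of 6 genes each. In the WT and ASIC1a-/- comparisons of time each had between 0 and 2 genes called, where 13.3% and 11.3% of all genes passed. Slco1a4 (higher at ZT13) and Cldn5 (lower) of the endothelium list passed in both genotypes, and so did Gja1, Cx3cr1 and Cnp of the glia lists, as lower. None of the lists had any gene called between genotypes.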

Additional observations from a re-analysis of the deposited data

Results flagged for a closer look

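Within groups of 4, a library was marked where its gap to the nearest other was above Dixon's 95% critical share of the group's range in CPM, over 88 groups of the 5 histamine genes and the genes around them; chance marks about 1 in 20 groups, and 5 were marked, none of them for a histamine gene. Slc18a2 was 77.1 CPM in WT ZT13 replicate 1, against 60.7 to 62.3 CPM in the others of the group, and that library also had the most midbrain dopamine markers of its group (135 CPM). Slc22a3 was 2.76 CPM in WT ZT1 replicate 1, against 3.71 to 3.85 CPM. Prph was 12.8 CPM in ASIC1a-/- ZT1 replicate 3, against 11.6 to 11.7 CPM. Barhl1, a transcription factor of the mammillary region, was 4.16 CPM in WT ZT1 replicate 3, against 3.29 to 3.41 CPM. Nkx2-4, another, was 3.19 CPM in ASIC1a-/- ZT1 replicate 2, against 3.81 to 3.92 CPM.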

How the results depend on the processing

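Between genotypes and in the interaction, 0 of 5 histamine genes passed under each alternative run. The replicate block gave 1 called gene for ZT13 vs ZT1 in ASIC1a-/-, Hnmt (-0.15, adjusted p = 0.049), and changed no other count of histamine genes. The numbers do not pair the mice: same-numbered libraries had a median correlation of 0.0087 over 24 pairs, against 0.017 over 72 pairs with different numbers, and 5 of 16 libraries matched best with their own number. Leaving out 1 library gave 0 to 1 called genes within WT, 0 to 1 within ASIC1a-/- and 0 to 2 for time averaged over both genotypes. For that averaged comparison the count was 1 as reported, 2 with library size only (Hnmt and Hrh1), and 0 with no filter on low counts, with an adjusted p under 0.01, and without ASIC1a-/- ZT1 replicate 4 and ASIC1a-/- ZT13 replicate 2 together; on both TPM scales, without WT ZT1 replicate 2 and without ASIC1a-/- ZT1 replicate 2 the count was 1, with Hrh1 in place of Hnmt. Hrh1 passed beside Hnmt without ASIC1a-/- ZT13 replicate 1, and Hdc beside Hnmt without WT ZT13 replicate 3. Among the single values, 886 kept direction and side of the threshold, 12 newly passed it, 10 no longer did and 22 changed sign; none of these 22 had passed the test.

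The sign changed for ZT13 vs ZT1 in ASIC1a-/- of Hdc (-0.0063 to 0.054 without 1 library, -0.016 without the 2 libraries together) and Hrh3 (-0.026 to 0.039, and -0.012), for ASIC1a-/- vs WT at ZT1 of Hdc (-0.039 to 0.026, and 0.0057), Hrh1 (-0.047 to 0.032) and Hrh3 (-0.072 to 0.023), for ASIC1a-/- vs WT at ZT13 of Hnmt (-0.0019 to 0.027, -0.00088 without the 2 together, -0.0049 on log2(TPM + 1) and -0.0051 on log2(TPM + 0.1)), and for the interaction of Hnmt (-0.10 to 0.00013). The cause was not tested.

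Of all genes, 2099 were called for time in WT and 1792 in ASIC1a-/-, against 879 and 971 on log2(TPM + 1), 882 and 969 on log2(TPM + 0.1), and 889 and 712 at an adjusted p under 0.01; with both genotypes averaged 4170, against 2643, 2654 and 2428. Without the 2 libraries together, 1099 were called in ASIC1a-/- and 6 in the interaction. Between genotypes the counts of 2, 16 and 10 at ZT1, ZT13 and averaged became 7, 30 and 23 with DESeq2 and 15, 29 and 20 with no filter, and that of 3 in the interaction 13 and 17, and 5 with the block. On both TPM scales the count at ZT1 was 1 and the averaged one 6, as at an adjusted p under 0.01. Leaving out 1 library moved the counts to 1320 to 2190 in WT, 1162 to 1827 in ASIC1a-/-, 2 to 5 at ZT1 and 3 to 7 in the interaction. Counting error was at most 5.27% of a value.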
